A study of Drosophila melanogaster with 7 samples.

Results

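The genes described here encode the enzymes and granule proteins that turn peptide hormone precursors into active peptides in Drosophila melanogaster. They were picked by gene name and function with earlier results of these data known, although no measured value enters the rule, and comprise the prohormone convertase gene amon, its helper protein gene Sgne1 (listed in the deposited table as 7B2), the furin-type convertase genes Fur1 and Fur2, the carboxypeptidase gene svr, the amidation enzyme genes Phm, Pal1 and Pal2, and the dense-core granule gene IA-2. All 9 were found among the 17481 genes of the table.

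Peptide hormones are made as long precursors that enter the secretory pathway and are cut behind pairs of basic residues. A subtilisin-like convertase makes the cut, a carboxypeptidase removes the basic residues left at the new end, and peptides that then end in glycine are converted to the amide form. In vertebrates a single bifunctional protein carries out the amidation, whereas in flies Phm encodes the hydroxylase and Pal1 and Pal2 encode lyases for the next step. In the fly midgut, peptides made in this way, such as tachykinins and neuropeptide F, are hormones of enteroendocrine cells. These cells descend from intestinal stem cells, which also give rise to absorptive enterocytes.

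RNA was sequenced from GFP-labelled intestinal stem cells, about 10000 per sample, sorted after elastase digestion of midguts from adult flies at day 2. The series title calls the cells progenitors. There were 3 Ctrl libraries, made from wild-type animals, and 4 ScOE libraries, whose donors overexpressed Sc, a proneural transcription factor of the basic helix-loop-helix family. The labels give no driver, transgene or GFP marker line, and they do not say whether libraries came from separate flies, and the p-values below thus describe the spread among libraries, which may be technical.

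The comparison asked which RNA levels differ between sorted cells with and without Sc overexpression. It was made with limma on log2(FPKM + 1) over 8421 genes, those with 1 FPKM or more in 3 or more of the 7 libraries. FPKM, fragments scaled by transcript length and library size, keeps no read numbers, so absolute depth is unknown. Judged by the steps among low values, and with ScOE 3 as 1, relative depth was 0.448 to 0.603 in Ctrl and 0.859 to 1.04 in ScOE, so low values are less precise in Ctrl. The overexpressed gene sc lay between 0.886 and 2.44 FPKM in Ctrl and between 66.0 and 190 FPKM in ScOE. Among the stem cell and enteroblast markers esg, Dl, N, mira, Sox21a and klu the summed level was 550 to 749 FPKM in Ctrl and 474 to 561 FPKM in ScOE. Of these 6, Sox21a fell and the other 5 did not pass the test, where 21.3% of all tested genes fell. Summed enterocyte markers differed between libraries of the same group, from 472 to 8082 FPKM in Ctrl and from 346 to 3432 FPKM in ScOE. Muscle markers set ScOE 3 apart, at 95.3 FPKM in sum against 0.891 to 1.33 FPKM in the other ScOE libraries and 1.01 to 6.93 FPKM in Ctrl. Each library is a bulk sample, so a larger share of cells of one type and more RNA per cell cannot be told apart for any gene below.

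All 9 processing genes passed the filter on low values; amon and Fur1 reached 1 FPKM in 2 of 3 Ctrl libraries and the other 7 genes in all of them. Of the 9, 7 rose in ScOE at an adjusted p under 0.05 in limma and none fell, where 39.0% of all tested genes changed, 17.6% rising and 21.3% falling. A rise of at least 2 on the log2 scale was found for 6 of the 9 and for 3.30% of tested genes, and one of at least 3 for 4 of the 9 and for 1.52%. The rising genes were amon, 7B2, Fur1, svr, Phm, Pal2 and IA-2, and Pal1 and Fur2 did not pass. The median log2 fold change of the 9 genes was 2.69, beside -0.08 for all tested genes. For each of the 7 rising genes every ScOE library was above every Ctrl library, a separation found for 20.3% of tested genes. All 7 calls were kept under each of the 17 other settings tried, among them 3 other scalings and each library left out in turn.

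**Figure D1:**
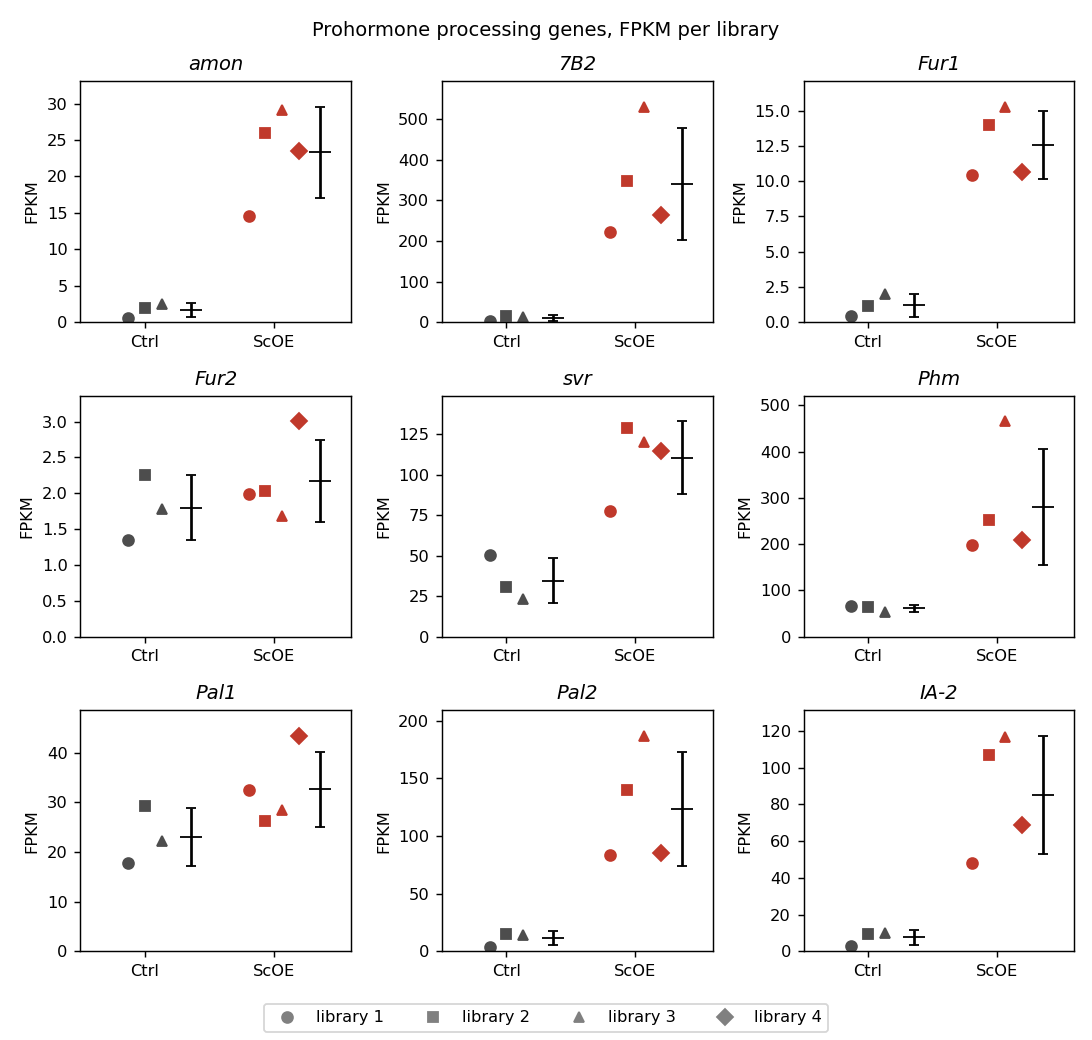
FPKM (linear axis from 0, scaled separately for each gene) of the 9 processing genes in 3 Ctrl libraries (grey) and 4 ScOE libraries (red), with symbols for library numbers and bars for mean ± SD. The groups are separate for 7 genes and overlap for Pal1 and Fur2; 7B2 spans 2.89 to 15.6 FPKM in Ctrl and 221 to 530 FPKM in ScOE.

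The convertase encoded by amon is the fly counterpart of vertebrate prohormone convertase 2, the enzyme that cuts precursors inside secretory granules. The gene lies on BDGP6 chromosome 3R from 26697697 to 26714159 on the minus strand, with 12 exons and no other annotated gene overlapping it. Its level was 0.568, 1.92 and 2.47 FPKM in Ctrl 1, 2 and 3 and 14.6, 26.0, 29.1 and 23.5 FPKM in ScOE 1 to 4. Ctrl 1 was the lowest control and ScOE 1 the lowest ScOE library, and the groups did not overlap. The log2 fold change was 3.23 ± 0.33 (SE, n = 3 and 4), with an adjusted p of 0.000428 in limma. In Ctrl the mean of amon was above only 11.0% of tested genes, and in ScOE above 63.3%.

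The product of 7B2 is a small secretory protein that in vertebrates keeps prohormone convertase 2 soluble and is needed for its activation. Its gene is short, with 2 merged exons between 5376780 and 5377975 on the plus strand of chromosome 3R. It was at 2.89, 15.6 and 12.9 FPKM in the Ctrl libraries and at 221, 346, 530 and 263 FPKM in the ScOE libraries. The lowest ScOE library was thus far above the highest Ctrl library. Mean FPKM was 32.5-fold higher in ScOE, and the log2 fold change of 5.06 ± 0.54 (adjusted p = 0.000488 in limma) exceeded that of 99.8% of tested genes. Without Ctrl 1, the library with the lowest value, the log2 fold change was 4.41. As an ordering of these libraries, 7B2 went from the fifth highest mean of the 9 genes in Ctrl to the highest in ScOE.

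Furin-type convertases cut many precursors, growth factors among them, in the constitutive secretory pathway. Fur1 (chromosome 3R, 25347431 to 25473058, minus strand, 9 annotated transcripts) was at 0.415, 1.13 and 2.01 FPKM in Ctrl and at 10.4, 14.0, 15.3 and 10.7 FPKM in ScOE. Its groups were separate, and it rose by a log2 fold change of 2.69 ± 0.27 (adjusted p = 0.000412 in limma). The annotation places 4 further genes within the span of Fur1, none of them over its exons, and all had group means below 0.1 FPKM.

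Fur2 (chromosome X, 16373086 to 16381782, plus strand, 9 annotated transcripts) was at 1.35, 2.26 and 1.77 FPKM in Ctrl and at 1.99, 2.03, 1.68 and 3.00 FPKM in ScOE. The groups overlapped, with Ctrl 1 the lowest library and ScOE 4 the highest. Its log2 fold change was 0.18 ± 0.19, with a 95% interval from -0.26 to 0.62 and an adjusted p of 0.491 in limma. The data therefore allow changes of Fur2 within that interval, all smaller than the lower end of the interval for Fur1, which was 2.05. With FPKM totals made equal, Fur2 passed (log2 0.75, adjusted p = 0.0275), in a setting where the median of all tested genes was 0.69; relative to that median the value was 0.06. Its direction turned with quantile normalization (log2 -0.15) and with library weights (log2 -0.082).

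Carboxypeptidase D, the product of svr, trims basic residues from the ends of cut peptides. The svr gene (chromosome X, 496446 to 509072, plus strand) has 11 annotated transcripts, which the gene-level values do not separate. It was at 50.1, 30.6 and 23.3 FPKM in Ctrl and at 77.7, 129, 120 and 115 FPKM in ScOE. Ctrl 1, which was lowest for amon and 7B2, was the highest control for svr. The log2 fold change was 1.69 ± 0.28 (adjusted p = 0.0036 in limma), the smallest among the 7 rising genes. An annotated antisense RNA overlaps svr exons, asRNA:CR44892, at a mean of 2.48 FPKM in Ctrl and 2.94 FPKM in ScOE. Whether counting used strand is not given in the sources used here, so reads of svr and of that RNA may not be separate.

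The first step of amidation is carried out by the copper-dependent hydroxylase encoded by Phm. It had the highest level of the 9 genes in Ctrl, at 67.2, 63.2 and 53.1 FPKM, and its ScOE values were 198, 251, 465 and 209 FPKM. All ScOE libraries were above all controls, and ScOE 3 was the highest by a wide margin. The log2 fold change was 2.10 ± 0.30 (adjusted p = 0.00173 in limma). ScOE 3 was also the library in which muscle markers were high, and the part of muscle RNA in the mean level of Phm was not tested. Without ScOE 3 the log2 fold change of Phm was 1.83 and the adjusted p 0.000895.

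The lyases encoded by Pal1 and Pal2 act on the product of Phm. Pal2 (chromosome 2R, 23688077 to 23690838, plus strand) was at 4.16, 15.2 and 14.0 FPKM in Ctrl and at 83.4, 140, 187 and 85.0 FPKM in ScOE. These groups were separate, with a log2 fold change of 3.45 ± 0.47 and an adjusted p of 0.00143 in limma. CG30183 on the opposite strand overlaps the end of Pal2; it was at means of 1.13 FPKM in Ctrl and 2.17 FPKM in ScOE, and its reads may not be separate from those of Pal2.

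Pal1 was at 17.8, 29.3 and 22.1 FPKM in Ctrl and at 32.4, 26.2, 28.4 and 43.3 FPKM in ScOE. Its groups overlapped, since Ctrl 2 was above ScOE 2 and ScOE 3. The log2 fold change was 0.48 ± 0.22, with a 95% interval from -0.05 to 1.01 and an adjusted p of 0.132 in limma. With equal FPKM totals Pal1 passed (log2 1.32, adjusted p = 0.00436; 0.63 relative to the median of all tested genes). In Ctrl, Pal2 made up 19.0% to 38.8% of the summed FPKM of both lyase genes, and in ScOE 66.3% to 86.8%. The more abundant lyase transcript was therefore Pal1 in every Ctrl library and Pal2 in every ScOE library.

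IA-2 encodes a transmembrane protein of dense-core granules related to tyrosine phosphatases, the fly counterpart of a vertebrate autoantigen of pancreatic islets. The gene (chromosome 2L, 1008378 to 1048053, minus strand) was at 3.05, 9.63 and 10.2 FPKM in Ctrl and at 48.1, 107, 117 and 68.7 FPKM in ScOE. Ctrl 1 and ScOE 1 were the lowest libraries of their groups, and the groups did not overlap. It rose by a log2 fold change of 3.37 ± 0.45 (adjusted p = 0.00127 in limma).

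**Figure D2:**
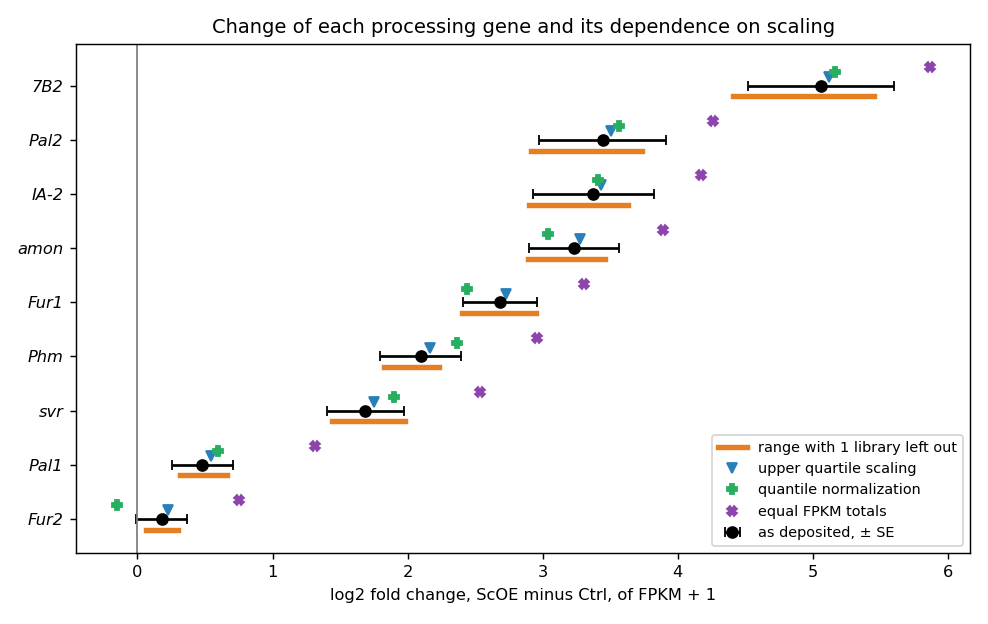
Log2 fold change of FPKM + 1 (ScOE minus Ctrl, x axis) for each processing gene, as deposited with its SE, under 3 other scalings, and as the range when each library is left out in turn. The values run from 0.18 for Fur2 to 5.06 for 7B2; equal FPKM totals move all of them to the right, and for Fur2 quantile normalization gives -0.15.

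FPKM is scaled by transcript length, so levels can be ordered between genes within a group. The RNA was amplified before library preparation, and any effect of that on the order between genes was not tested. In Ctrl the order of mean FPKM was Phm (61.2 ± 7.27, SD), svr (34.7 ± 13.9), Pal1 (23.1 ± 5.83), Pal2 (11.1 ± 6.06), 7B2 (10.5 ± 6.69), IA-2 (7.61 ± 3.96), Fur2 (1.80 ± 0.453), amon (1.65 ± 0.981) and Fur1 (1.19 ± 0.800). The ranges of neighbours overlapped except between Phm and svr, between Pal1 and Pal2, and between IA-2 and Fur2. In ScOE the order was 7B2 (340 ± 137), Phm (281 ± 125), Pal2 (124 ± 49.4), svr (110 ± 22.5), IA-2 (85.1 ± 32.2), Pal1 (32.6 ± 7.61), amon (23.3 ± 6.23), Fur1 (12.6 ± 2.40) and Fur2 (2.18 ± 0.572). Here the neighbours with separate ranges were Phm and Pal2, IA-2 and Pal1, and Fur1 and Fur2. The convertase transcripts stayed at the low end in both groups, below those of the carboxypeptidase and the hydroxylase.

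Ratios between genes within a library cancel the scaling between libraries, apart from a part left by the pseudocount, and show whether genes changed by unequal amounts. For 6 pairs the log2 ratio of FPKM + 1 was compared between groups by an exact two-sided permutation test with 35 arrangements, whose smallest possible p is 0.0286. The p-values are adjusted over these 6. The pairs Pal2 to Pal1 and Fur1 to Fur2 were added because their values had been seen to differ, so they are given as a description with no test.

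The amon to Fur2 ratio was -0.59, -0.16 and 0.32 in the Ctrl libraries and 2.39 to 3.49 in ScOE, a difference of 3.05 (exact p = 0.0286, adjusted p = 0.0429). The amon to Fur1 ratio lay between 0.15 and 0.45 in Ctrl and between 0.45 and 1.07 in ScOE, a difference of 0.55 that did not pass (exact p = 0.0857, adjusted p = 0.103). The Fur1 to Fur2 ratio went from -0.73 to 0.12 in Ctrl to 1.54 to 2.60 in ScOE, a difference of 2.51. Among convertase genes, amon made up 24.3% to 39.5% of the summed FPKM in Ctrl and 54.0% to 63.3% in ScOE.

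Transcripts of 7B2 increased by more than those of amon. The FPKM of 7B2 was 5.09 to 8.12 times that of amon in the Ctrl libraries and 11.2 to 18.2 times in the ScOE libraries. On the log2(FPKM + 1) scale the amon to 7B2 ratio differed by -1.83 (exact p = 0.0286, adjusted p = 0.0429). The size of this difference depends on the pseudocount and was -2.45 with 5 FPKM. The amon to svr ratio was higher in ScOE by 1.55 with the same p-values; without Ctrl 1 that difference was 0.91.

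Along the amidation pathway, the Phm to Pal2 ratio was lower in ScOE by 1.35 on the log2 scale, the difference being -1.35 (exact p = 0.0286, adjusted p = 0.0429). In FPKM, Phm was 16.1 times Pal2 in Ctrl 1, 4.16 times in Ctrl 2 and 3.78 times in Ctrl 3, against 1.80 to 2.49 times in ScOE. Ctrl 1 stood apart here, and without it the difference was -0.75. The Pal2 to Pal1 ratio differed by 2.97, from -1.86 to -0.62 in Ctrl and 0.96 to 2.67 in ScOE. Set against both lyase genes together, Phm FPKM was 1.42 to 3.06 times their sum in Ctrl and 1.51 to 2.16 times in ScOE, ranges that overlap. The Phm to svr ratio did not pass (difference 0.41, exact p = 0.343). With a pseudocount of 5 FPKM, which exceeds every Ctrl value of amon, the differences of amon to Fur2, amon to 7B2 and Phm to Pal2 had an adjusted p of 0.0572, and that of amon to svr one of 0.205. Only amon to svr left the smallest possible exact p, and the adjusted p of the others rose through the adjustment.

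**Figure D3:**
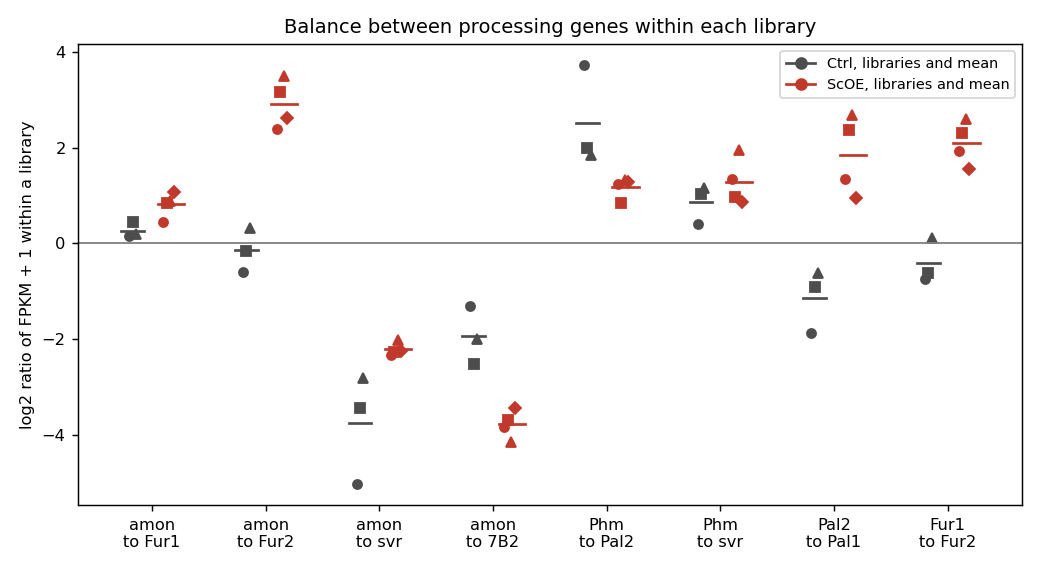
Log2 ratio of FPKM + 1 between 2 processing genes within each library (y axis), for 3 Ctrl libraries (grey) and 4 ScOE libraries (red), with lines for group means and symbols for library numbers as in the plot of FPKM by library. The groups are separate for 6 of 8 pairs and overlap for amon to Fur1 and Phm to svr.

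Libraries of the same group differed in these genes. Within ScOE, the library ScOE 3 was the highest for 6 of the 9 genes and ScOE 1 the lowest for 7. Of all tested genes 22.7% were highest in ScOE 3 and 19.6% lowest in ScOE 1. Among all genes that rose, 28.0% were lowest in ScOE 1. Within Ctrl, Ctrl 1 was the lowest for 7 of the 9 genes and the highest for svr and Phm. It was the lowest for 37.2% of all tested genes and for 50.5% of all genes that rose. The summed FPKM of 13 hormone precursor genes followed the same order in ScOE, with 3550, 7328, 9928 and 4660 FPKM in ScOE 1 to 4. In Ctrl it was 325, 1041 and 1508 FPKM, again lowest in Ctrl 1. Pal1 and Fur2 were highest in ScOE 4 and did not share this order.

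Markers of other cells moved along in part. All 5 enteroendocrine markers, 4 of which are hormone genes also counted above, rose, where 17.6% of all tested genes rose. The summed level of these markers was 40.1 to 362 FPKM in Ctrl and 1853 to 4660 FPKM in ScOE. These 4 hormone genes are a choice. Among the other hormone precursor genes, NPF and Mip did not pass, and ITP and Nplp2 fell. The neuron markers elav, nSyb, brp and fne were each called higher in ScOE, where 17.6% of all tested genes rose. Summed, these markers were at 7.56 to 7.95 FPKM in Ctrl and 59.5 to 76.3 FPKM in ScOE. Of these, brp and fne passed the filter only through ScOE, so a rise was a condition of their test. Within Ctrl, elav was highest in Ctrl 1 at 7.10 FPKM and made up most of the sum. The other 3 markers were lowest in Ctrl 1, as 7B2 was, with nSyb at 0.566, 1.71 and 1.08 FPKM. Peptide-secreting neurons also use these processing enzymes, and the part of neuronal RNA in the rises was not tested. The neuron markers rose together with the enteroendocrine markers, and bulk libraries cannot tell which cells their RNA came from. The summed enterocyte markers were lowest in Ctrl 1 and ScOE 1, the libraries with the lowest values of most processing genes, and their part was not tested either. Single enterocyte markers differed from the sum, with Myo31DF highest in Ctrl 1 and lowest in ScOE 4 and Jon99Fi lowest in ScOE 2. Of 7 enterocyte markers 3 fell, where 21.3% of all tested genes fell. Of 4 glial genes, moody and nrv2 fell and the defining repo and alrm were near 0. Summed tracheal markers were at 3.26 to 4.63 FPKM in Ctrl and 0.895 to 1.68 FPKM in ScOE, and btl fell (log2 -1.35, adjusted p = 0.00153 in limma), having passed the filter mainly through Ctrl. Summed hemocyte markers were at 0.733 to 1.67 FPKM in Ctrl and 0.153 to 0.483 FPKM in ScOE, with none tested. Summed fat body markers were at most 0.588 FPKM in any library.

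**Figure D4:**
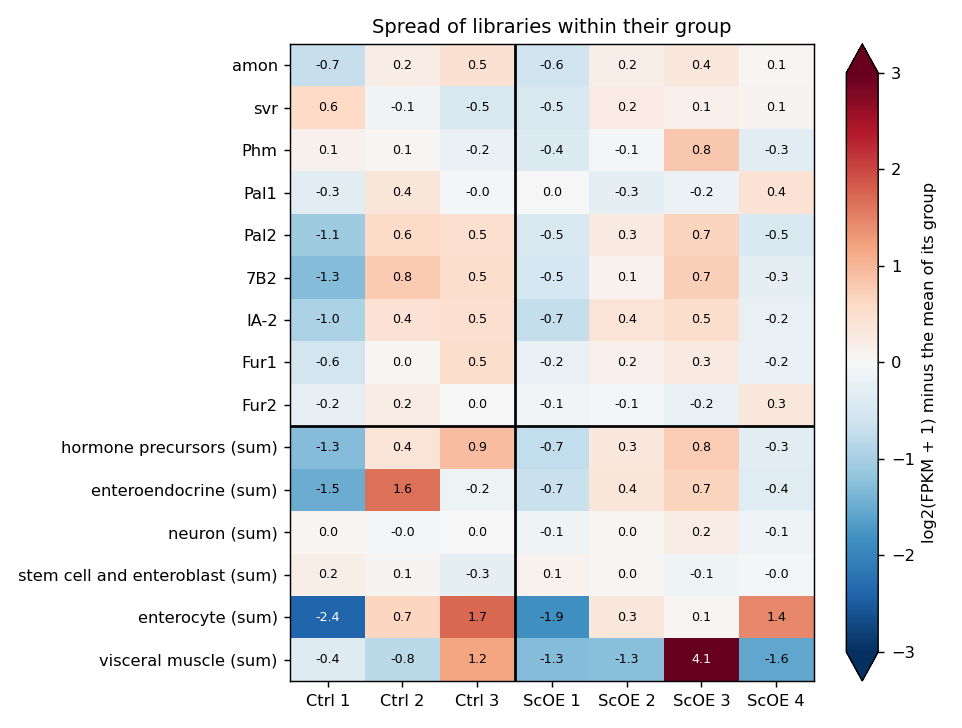
Log2(FPKM + 1) of each library minus the mean of its group (colour and printed value) for the 9 processing genes and, below the line, for summed marker lists and hormone precursors. 7B2 runs from -1.31 in Ctrl 1 to 0.78 in Ctrl 2, and the muscle sum of 4.11 in ScOE 3 lies beyond the colour scale.

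Genes that act around these enzymes were described by counts, since the lists were drawn up with earlier results of these data known. Of 13 hormone precursor genes, the substrates of the pathway, 9 rose, 2 fell and 2 did not pass, with a median log2 fold change of 2.55. Of all tested genes 17.6% rose. The rises of sNPF and CCAP were a condition of their test, since both were below 1 FPKM in every Ctrl library. CCHa1 rose from between 6.25 and 25.9 FPKM to between 502 and 1474 FPKM (log2 5.74 ± 0.55, adjusted p = 0.000333 in limma). Tk, the tachykinin precursor gene, went from 9.97 to 21.9 FPKM in Ctrl to 139 to 364 FPKM in ScOE, and AstA from 0.534 to 5.99 FPKM to 76.3 to 244 FPKM. AstC and the orcokinin gene CG13565, whose mature peptides are not amidated, rose as well, with log2 fold changes of 4.45 and 2.91. For AstC the value was 3.60 without Ctrl 1 and 5.46 without Ctrl 2. The members that fell were ITP (log2 -1.88) and Nplp2 (log2 -2.30). The call of Nplp2 was lost without Ctrl 2 (adjusted p = 0.0517 in limma). NPF, at 26.7 to 559 FPKM in Ctrl and 204 to 1310 FPKM in ScOE, did not pass (log2 2.12, adjusted p = 0.154 in limma). Mip did not pass either (log2 0.57, adjusted p = 0.449 in limma).

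Among 12 genes for regulators of dense-core granules, 10 were tested, of which 7 rose, 1 fell and 2 did not pass. Of all tested genes 17.6% rose and 21.3% fell. The median log2 fold change of the 10 was 1.97. Of the 7 that rose, 6 were below 1 FPKM in at least 2 of 3 Ctrl libraries and passed the filter only through ScOE, so the count and the median carry that selection and support nothing. These 6 were dimm, CG10566, Sytbeta, PICK1, Syt7 and Sytalpha, and Rab2 was the other. The basic helix-loop-helix factor gene dimm, known in Drosophila as an activator of Phm and of the peptidergic cell state, was at 0.139 to 0.177 FPKM in Ctrl and at 3.64 to 6.37 FPKM in ScOE. The log2 fold change of dimm was 2.43 ± 0.18 (adjusted p = 0.000122 in limma). CG10566, the fly ICA69 gene, rose from 0.418 to 0.715 FPKM to 6.94 to 9.51 FPKM, and the synaptotagmin gene Sytbeta from 0.421 to 0.839 FPKM to 10.6 to 21.2 FPKM. PICK1, whose product binds that of ICA69, had a log2 fold change of 1.84. The gene that fell was crc, which encodes the fly ATF4, by a log2 value of -0.75, a call lost with quantile normalization (-0.33) and turned to 0.12 with equal FPKM totals. Cadps, listed as Caps and known to act in granule release, stayed below the filter at 0.486 to 0.943 FPKM over all libraries. Syt4 was not tested either, at 16.0 FPKM in Ctrl 1 and at most 0.266 FPKM in every other library.

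The hydroxylase step needs copper and an electron donor. Of 6 genes for copper transport and electron supply 4 were tested, of which none rose at an adjusted p under 0.05 and 1 fell. Of all tested genes 17.6% rose and 21.3% fell. The copper importer genes Ctr1A and Ctr1B had log2 fold changes of -0.05 ± 0.17 and -0.09 ± 0.39, and the copper pump gene ATP7 had 0.18 ± 0.13. Atox1, the gene of a copper chaperone, fell from 110 to 133 FPKM to 49.5 to 73.6 FPKM (log2 -0.96, adjusted p = 0.00404 in limma), a call lost with equal FPKM totals (log2 -0.10). The cytochrome b561 gene nemy was between 0.120 and 0.391 FPKM in all 7 libraries and was not tested. Of the other genes for peptide modification, the glutaminyl cyclase gene isoQC rose (log2 0.96 ± 0.22, adjusted p = 0.0131 in limma), and QC and the tyrosylprotein sulfotransferase gene, listed as Tango13, did not pass.

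Of 5 genes for other proteases, all tested, 1 rose, where 17.6% of all tested genes rose. It was CG4678, a carboxypeptidase gene at 0.706 to 1.46 FPKM in Ctrl and 2.15 to 3.74 FPKM in ScOE (log2 0.82, adjusted p = 0.0164 in limma). This call was lost with quantile normalization (log2 0.50). S1P, S2P, TppII and the cathepsin L gene Cp1 had log2 fold changes between -0.34 and -0.03 and did not pass. Of 11 genes of the signal peptidase and the translocon, which act on every secreted protein, 3 rose and 8 did not pass, with a median of 0.12, where 17.6% of all tested genes rose. The 3 were the signal peptidase subunit genes Spase25 (log2 0.69), twr (log2 0.63) and Spase22-23 (log2 0.54). The call of Spase22-23 was lost without Ctrl 2, Ctrl 3, ScOE 1, ScOE 2 or ScOE 3 (adjusted p = 0.0572 to 0.105 in limma), and with the upper quartile scaling, quantile normalization and equal totals 5, 7 and 10 of the 11 rose.

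**Figure D5:**
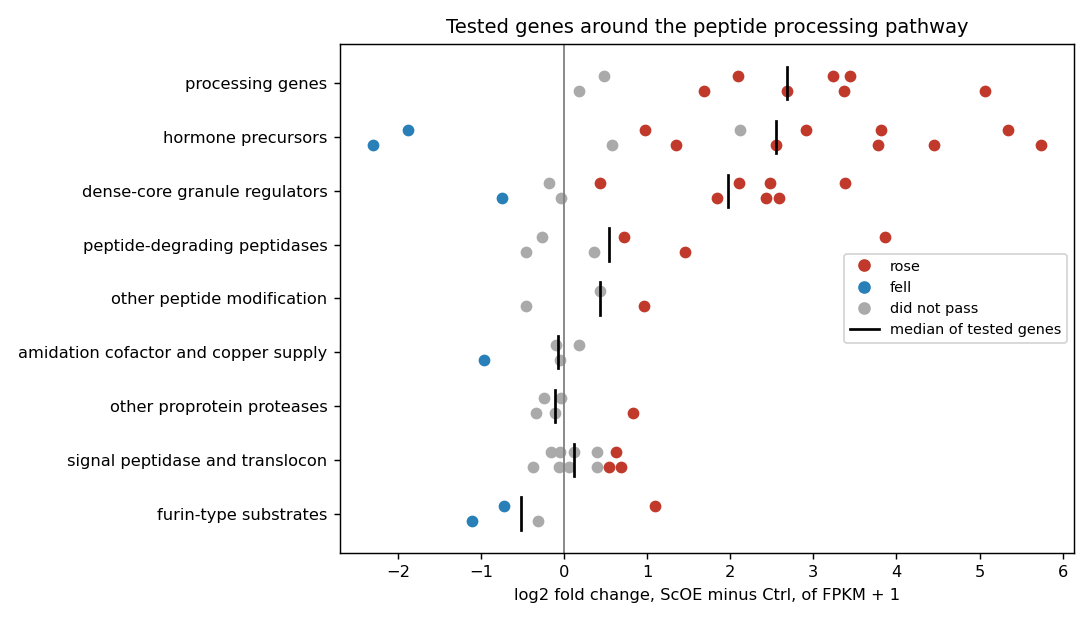
Log2 fold change of FPKM + 1 (ScOE minus Ctrl, x axis) of every tested gene in the 9 processing genes and 8 surrounding lists, with calls as colours and the list median as a line. The medians run from 2.69 for the processing genes to -0.52 for furin-type substrates.

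As a description of which profiles most resembled those of single processing genes, the tested genes with the highest Pearson correlation over the 7 libraries were found. For amon these were Cyp4ad1 (r = 0.999), srpk79D (r = 0.997) and CG5191 (r = 0.996), and 465 tested genes outside the 9 had an r over 0.95. For Phm they were CG18766 (r = 0.996), CR45259 (r = 0.995) and CG34045 (r = 0.994). For svr they were the zinc transporter gene ZnT63C (r = 0.987), CG7272 (r = 0.983) and CG8289 (r = 0.981), with 56 genes over 0.95. All 7 points share the group difference, and no p-value is given.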

How the data were processed

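RNA was amplified before library preparation, per the labels' protocols. The tools TopHat2 2.0.10 and Cufflinks 2.2.1 and the build BDGP6 are named in the submitters' processing notes. The deposited values are FPKM per gene and library; the annotation, strand setting and any scaling between libraries are not given in the sources used here. Values under 1e-06 FPKM were set to 0, which left 2790 genes at 0 everywhere.

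FPKM was tested on log2(FPKM + 1) with limma 3.58.1 in R 4.3.3 (variance trend, two-sided, Benjamini-Hochberg adjustment over 8421 genes), without scaling or covariate; the fit was tested on simulated data. Ratios used an exact permutation test. Fold changes on this scale understate changes of low genes. The 9 genes, the lists (113 entries, all matched), the tests and the other settings were chosen with earlier results of these data known. Named list genes were those called with the smallest adjusted p, up to 3 in each direction (5 for hormone precursors); other names, such as PICK1 or Cadps, were chosen after their values were seen. Gene models are from Ensembl release 115 on BDGP6, 1-based, and cover 7 of the 9 genes; the positions of Phm and Pal1 were not used here. Alternatives were pseudocounts, filters, scalings, moderation, library weights, a replicate block and leaving out each library. Figures used matplotlib 3.10.9 in Python 3.11.15.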

Additional observations from a re-analysis of the deposited data

Results flagged for a closer look

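Of 45 values screened in the 4 ScOE libraries, 2 had a library far from the other 3, where chance alone gives about 1 in 20. The log2 ratio of Phm to Pal2 was 0.84 in ScOE 2 and 1.24 to 1.31 in the other ScOE libraries. The hormone precursor gene Nplp2 was at 75.7 FPKM in ScOE 3 and at 18.7 to 21.4 FPKM in the others.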

How the results depend on the processing

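The 7 rising processing genes kept their direction and call under all 17 alternatives, with 7 rises and 0 falls each time. Over all genes, equal FPKM totals gave 4453 rises and 279 falls in place of 1484 and 1796, and under that setting Pal1 (log2 1.32) and Fur2 (log2 0.75) passed, crc turned to 0.12 and myo to 0.10; the top entry of the table, CR40469, held 22.9% to 29.5% of summed FPKM in Ctrl and 12.4% to 21.7% in ScOE. Fur2 turned to -0.15 with quantile normalization and -0.082 with library weights. With a pseudocount of 5 the differences of log2 ratios that no longer passed were amon to Fur2 (1.99), amon to svr (0.50), amon to 7B2 (-2.45) and Phm to Pal2 (-0.97). For amon to Fur2, amon to 7B2 and Phm to Pal2 the exact permutation p stayed at its smallest possible value, 0.0286. Their adjusted p rose because amon to svr no longer shared that value. With 1 library left out the exact test cannot reach 0.05 after adjustment; the differences ranged from 2.83 to 3.28 for amon to Fur2, 0.91 to 2.02 for amon to svr, -2.12 to -1.52 for amon to 7B2, -1.69 to -0.75 for Phm to Pal2, 2.60 to 3.26 for Pal2 to Pal1 and 2.34 to 2.77 for Fur1 to Fur2. Of 724 values of surrounding genes and lists under alternatives, 683 kept their call or count. Whether the replicate numbers pair the libraries is not settled by these values. Deviations of same-numbered libraries correlated at 0.52, -0.04 and 0.08, and Ctrl 3 correlated best with ScOE 4 (0.46). The value of 0.52, for Ctrl 1 and ScOE 1, was the largest of all pairs. The correlations cannot decide it, since deviations within a small group depend on each other. A replicate block, in which ScOE 4 is fitted by its own term and adds nothing, called 2540 genes in place of 3280, with 2377 shared; of the 11 signal peptidase and translocon genes 1 rose in place of 3, twr (adjusted p = 0.0508 in limma) and Spase22-23 (0.0536) losing their calls.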

Other observations

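Peptides are also broken down, by neprilysins and other peptidases, and some of these genes rose with the processing genes. Of 15 such genes 6 were tested, of which 3 rose, none fell and 3 did not pass. Of all tested genes 17.6% rose and 21.3% fell. Nep1 was at 0.430, 1.75 and 0.471 FPKM in Ctrl and at 18.8, 27.9, 32.6 and 23.1 FPKM in ScOE, a log2 fold change of 3.86 ± 0.29 (adjusted p = 0.000117 in limma). Nep3 rose from 0.936 to 1.22 FPKM to 3.79 to 5.80 FPKM (log2 1.46 ± 0.15). Acer, an angiotensin-converting enzyme relative, had a log2 fold change of 0.72. Its call was lost with quantile normalization (0.28) and with the replicate block (0.68, adjusted p = 0.0669 in limma). Nep1 and Acer passed the filter only through ScOE, so for them a difference was a condition of being tested. The count of rises carries that selection. Ance varied between 10.1 and 75.2 FPKM in Ctrl and between 2.86 and 64.8 FPKM in ScOE and did not pass.

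Precursors of the TGF-beta family are known substrates of furin-type convertases. Of 7 such genes 4 were tested, and 1 rose and 2 fell, where 17.6% of all tested genes rose and 21.3% fell. Actbeta was at 0 to 0.158 FPKM in Ctrl and 0.871 to 1.51 FPKM in ScOE (log2 1.09 ± 0.16, adjusted p = 0.0022 in limma). It passed the filter only through ScOE, so its rise was a condition of being tested. Likewise daw passed only through Ctrl, at 2.05 to 2.58 FPKM against 0.0632 to 0.889 FPKM in ScOE, so its fall was a condition of being tested. The genes daw (log2 -1.10) and myo (log2 -0.72) fell, and both calls were lost with equal FPKM totals (log2 -0.65 and 0.10). The group means of gbb, a BMP-type member, differed by a log2 fold change of -0.32 ± 0.34 and did not pass.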
